A study of Mus musculus with 3 samples.

Results

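Replication-dependent histone genes encode the core histones H2A, H2B, H3 and H4 and the linker histone H1 that package newly replicated DNA. Members were taken as the protein-coding genes of the annotation whose symbol starts with Hist1h, Hist2h, Hist3h or Hist4h. There were 67 such genes among 55536 annotated genes and 22015 nuclear protein-coding genes. They comprised 6 genes for H1, 18 for H2A, 18 for H2B, 12 for H3 and 13 for H4. The Hist1 cluster on chromosome 13 held 54 of them, Hist2 on chromosome 3 held 10, Hist3 on chromosome 11 held 2, and Hist4 on chromosome 6 was a single gene.

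Their RNA was measured in macrophages grown in culture from bone marrow of C57BL/6J mice (BMDM), for which the labels give neither age nor sex. All cells had received 100 ng/ml of Lipid A, the membrane-anchored portion of bacterial endotoxin, for 30 min. Total RNA of their cytosolic fraction was sequenced once ribosomal RNA had been depleted. The 3 libraries form 1 group and are numbered replicates 1, 2 and 3 as in the labels, which list them as biological replicates of the same donor record. Errors and p-values therefore reflect only how these samples varied, and that variation may be technical in part. Unstimulated cells and nuclear RNA were not analysed here, so every value is a level at 1 time point.

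Most replication-dependent histone genes are short and have no intron. Their mRNA is made during S phase and, in its usual form, ends in a conserved stem-loop in place of a poly(A) tail. The stem-loop binding protein Slbp and the U7 small nuclear ribonucleoprotein direct the cut a few bases downstream of it, and the mRNA is degraded when replication stops. Some of these genes can also give polyadenylated mRNA from a site further downstream. Depletion of ribosomal RNA keeps both forms, and poly(A) selection would lose the first. Macrophages grown from bone marrow hold a share of dividing cells that depends on the culture.

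A search of the GENCODE M21 transcript sequences for the stem-loop found it in 46 of the 67 members. The motif searched had 16 bases, with 6 base pairs of stem around a loop of 4 bases, and was allowed to vary at several positions. It was present in 1.01% of the 21901 protein-coding genes with a protein-coding transcript, members included. The sequences below are those of the highest members with a match in each class and of 3 further members, because the stem separates H4 from the other classes. Capitals mark the stem-loop, and 5 bases on either side are in lower case where the gene model reaches that far.
Hist1h1c: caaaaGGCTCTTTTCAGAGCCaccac
Hist2h2aa2: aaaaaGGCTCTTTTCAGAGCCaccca
Hist1h2bg: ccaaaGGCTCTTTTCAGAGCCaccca
Hist1h3c: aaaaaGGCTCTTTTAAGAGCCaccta
Hist1h4h: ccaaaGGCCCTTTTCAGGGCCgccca
Hist1h4m: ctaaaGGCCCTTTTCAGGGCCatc
Hist1h4b: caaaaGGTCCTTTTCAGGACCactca
Hist1h3g: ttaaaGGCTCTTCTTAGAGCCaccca
The form of Hist1h1c was shared by 26 genes, of which 3 encode H1, 10 H2A, 8 H2B and 5 H3. No H4 gene had it. The form of Hist1h4h was found in 7 genes, all for H4, and the form of Hist1h4b in 2 H4 genes, itself included. Every match was preceded by bases rich in A, and the next bases were ac in 35 of the 46 genes. In Hist1h4m the gene model stops 3 bases after the stem.

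The annotated models of the remaining members differ in a way that bears on their counts. For 15 members a protein-coding transcript was annotated that held the coding sequence alone or at most 20 further bases. Of these, Hist1h2bq and Hist1h2br also had longer transcripts, which did not hold the motif. The model of 23 members ended within 100 nt of the stem-loop, and that of another 23 ran more than 100 nt past it. For 6 members, including Hist1h2bc and Hist2h2be, an untranslated region was annotated that did not hold the motif. At least 1 single-exon protein-coding transcript was annotated for 65 of the 67 members, and gene lengths ran from 312 nt for Hist1h4k to 7425 nt for Hist1h1d.

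Upstream sequences are shown for the highest member of each class whose RefSeq start lay at most 5 nt from the GENCODE start. The relation of these sequences to the levels was not tested. RefSeq promoters on GRCm38.p6 were matched to 61 of the 67 members, and 26 of these met the limit of 5 nt. Each run gives the 150 bases before the start in the direction of transcription. Capitals mark 4 motifs, which were searched on both strands. They are the TATA box, the CCAAT box, the octamer bound by Oct proteins in H2B promoters, and the H1 box of linker histone promoters, and a match on the opposite strand shows as its reverse complement.
Hist1h1c, chr13:23738657-23738806, plus strand: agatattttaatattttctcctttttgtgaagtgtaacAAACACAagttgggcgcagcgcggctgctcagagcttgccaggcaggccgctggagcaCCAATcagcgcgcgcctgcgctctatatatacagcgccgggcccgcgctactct
Hist2h2aa1, chr3:96245347-96245496, plus strand: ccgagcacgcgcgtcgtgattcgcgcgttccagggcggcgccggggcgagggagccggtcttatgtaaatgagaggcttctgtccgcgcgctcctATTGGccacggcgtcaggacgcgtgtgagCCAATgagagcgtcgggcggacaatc
Hist1h2bg, chr13:23571250-23571399, plus strand: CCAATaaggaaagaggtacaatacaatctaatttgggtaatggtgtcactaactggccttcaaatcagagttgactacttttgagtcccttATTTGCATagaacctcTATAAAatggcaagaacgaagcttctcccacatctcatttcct
Hist2h3b, chr3:96268504-96268653, plus strand: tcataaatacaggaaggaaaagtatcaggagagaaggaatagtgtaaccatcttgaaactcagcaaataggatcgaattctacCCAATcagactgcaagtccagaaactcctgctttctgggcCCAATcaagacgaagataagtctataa
Hist1h4m, chr13:21811596-21811745, plus strand: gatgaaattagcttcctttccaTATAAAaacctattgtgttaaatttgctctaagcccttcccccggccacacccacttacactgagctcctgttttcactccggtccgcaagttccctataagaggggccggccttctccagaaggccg
In Hist1h1c the H1 box began 112 bases and the CCAAT box 54 bases before the start. Hist1h2bg had the octamer at 59 and the TATA box at 43 bases before the start.

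Over the whole 250 bases upstream, the CCAAT box was found by these 5 letters in 82.0% of the 61 matched members and in 33.8% of all 32851 promoters of the table. All matched H1, H2A and H2B genes had it, against 80.0% of the 10 H3 genes and 25.0% of the 12 H4 genes. The octamer, searched as ATTTGCAT, occurred in 7 of 17 H2A and 6 of 16 H2B genes, in no H1, H3 or H4 gene, and in 1.6% of all promoters. The H1 box, searched as AAACACA, was present in 5 of 6 H1 genes, in 4 H2A or H2B genes and in 6.25% of all promoters. The TATA box, searched as TATAAA, was found in 47.5% of members and 12.4% of all promoters. Many H2A and H2B genes lie head to head and share 1 upstream region, so their windows are not independent. These matches describe letters, not bound sites.

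The total of expected counts over genes was 23403552, 50435201 and 35785896 in replicates 1, 2 and 3, so replicate 2 has the smallest counting error. All 10 macrophage markers examined, such as the growth factor receptor Csf1r and the lysozyme gene Lyz2, had a mean above 10 TPM (counts per effective length, scaled to a fixed total). The globin genes Hbb-bs, Hbb-bt and Hba-a1, which mark red cells, were at 0 counts in each library. The libraries were not alike in other respects. All 8 stromal markers were highest in replicate 1, where their summed level was 297.1 CPM against 0.5329 in replicate 2 and 1.277 in replicate 3. CPM here are counts relative to a library total that was scaled by TMM, which sets libraries to a common middle. The 9 RNAs of a nuclear list, of which 8 were tested, summed to 29970, 18610 and 35330 CPM in replicates 1, 2 and 3. Rn7sk was the largest part, at 15300, 10700 and 16900 CPM. Malat1, at 3880, 1260 and 6510 CPM, and Neat1, at 704, 149 and 860 CPM, were lower in replicate 2 by more than the sum was.

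Histone genes took 7407, 23879 and 17293 of the counts in the 3 libraries. The share of counts in replicate 1 was 0.0316% (95% Wilson interval 0.0309 to 0.0324). Replicate 2 had 0.0473% (0.0467 to 0.048), and replicate 3 had 0.0483% (0.0476 to 0.049). The intervals of replicates 2 and 3 overlapped, and that of replicate 1 lay below both. Intervals cover counting error only. Per length, histone genes took 0.115%, 0.179% and 0.217% of the TPM of nuclear protein-coding genes (mean 0.17 ± 0.0515, SD, n = 3).

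A mean of 1 TPM or more was reached by 53 of the 67 histone genes, against 42.7% of nuclear protein-coding genes. The count by class was 4 of 6 for H1, 13 of 18 for H2A, 13 of 18 for H2B, 11 of 12 for H3 and 12 of 13 for H4. A mean of at least 10 TPM was reached by 11 of the 67 members and by 3961 of the 22015 nuclear protein-coding genes, which are similar shares. At the other end, Hist1h2aa and Hist1h2ba had 0 counts in each library, where a count of 0 allows up to 0.128, 0.0595 and 0.0838 CPM in replicates 1, 2 and 3. Hist1h2aa and Hist1h2ba, neighbours at the end of the Hist1 cluster, are known for their expression in testis. Hist1h1t, the testis-specific H1, had 0, 0 and 2 counts. Hist1h2ao was also listed at 0 in each library, but that limit does not apply to it, since other genes hold 93.8% of its 31-base words and its reads cannot be placed with certainty. The second table assigned it 3.739, 14.67 and 0 counts.

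**Figure D1:**
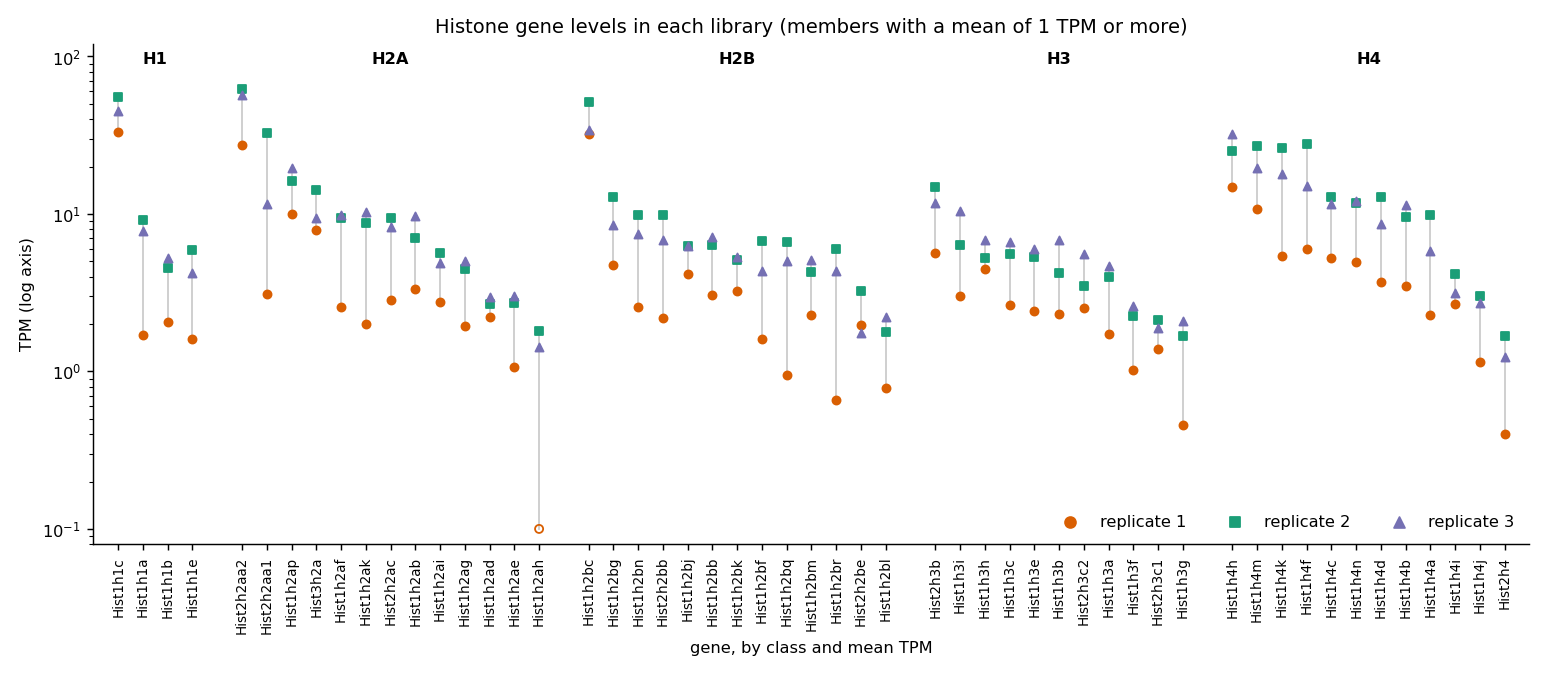
TPM (log axis) of the 53 histone genes with a mean of 1 TPM or more, by class, with 1 symbol for each of the 3 libraries and a grey line over their range; the open symbol at the bottom is a library with 0 TPM. Replicate 1 is the lowest library for 52 of the 53 genes, and Hist1h1c and Hist1h2bc stand clear of the other members of their classes. The summed TPM of nuclear protein-coding genes is also lowest in replicate 1.

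Among the linker histones, Hist1h1c (H1.2) dominated. It had 33.02, 55.38 and 45.36 TPM in replicates 1, 2 and 3, and held 85.3%, 73.1% and 71.5% of H1 TPM. Its lowest library lay above the highest library of every other H1 gene. Hist1h1a (H1.1), next in mean, had 1.7, 9.17 and 7.84 TPM, and Hist1h1b (H1.5) had 2.07, 4.53 and 5.28 TPM. The ranges of Hist1h1a and Hist1h1b overlapped, so their order is not resolved. Sequence sharing hardly touches these genes, since 11.4% of the 31-base words of Hist1h1c and 0.3% of those of Hist1h1a occur in other genes. The posterior SD of the count, the authors' estimate of the uncertainty left by shared reads, was at most 0.0264% of the count for Hist1h1c. By mean count, Hist1h1e (448) and Hist1h1d (277) lay above Hist1h1a (217) and Hist1h1b (133). The models of Hist1h1e and Hist1h1d run 1153 and 4884 nt past the stem-loop. The effect of model length on the order by TPM was not tested.

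The H2A genes were led by Hist2h2aa2, one of a near-identical pair that faces in opposite directions in the Hist2 cluster. Hist2h2aa2 had 27.36, 62.16 and 56.8 TPM, the highest mean of any member (48.8 ± 18.7, SD, n = 3). Its partner Hist2h2aa1 had 3.1, 32.71 and 11.59 TPM. Other genes held 100.0% of the 31-base words of Hist2h2aa2 and 89.7% of those of Hist2h2aa1, and the share of the pair's TPM assigned to Hist2h2aa1 was 10.2%, 34.5% and 16.9%. The pair summed to 30.5, 94.9 and 68.4 TPM, a sum that still depends on the effective length given to each gene. Hist1h2ap followed with 10.03, 16.29 and 19.7 TPM, and Hist3h2a with 7.94, 14.2 and 9.36 TPM. Hist1h2ap was above Hist3h2a in each library, but their ranges overlapped.

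Of the H2B genes, Hist1h2bc stood apart. Its levels were 32.36, 51.21 and 34.02 TPM, all above those of any other H2B gene, and it held 52.3%, 38.5% and 33.8% of H2B TPM. Its annotated transcript joins 2 exons and lacks the stem-loop motif. Hist1h2bg had 4.76, 12.9 and 8.53 TPM, and Hist1h2bn had 2.56, 9.91 and 7.44 TPM. Hist1h2bg lay above Hist1h2bn in each library, with overlapping ranges.

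No H3 gene dominated its class. Hist2h3b had 5.69, 14.79 and 11.71 TPM, Hist1h3i 3.02, 6.38 and 10.4 TPM, and Hist1h3h 4.44, 5.26 and 6.86 TPM. Hist2h3b exceeded Hist1h3i in each library, while Hist1h3i and Hist1h3h changed places. Hist2h3b held 20.2%, 26.4% and 17.6% of H3 TPM.

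H4 had 4 genes at 10 TPM or more. Hist1h4h had 14.75, 25.04 and 32.03 TPM, Hist1h4m 10.8, 26.89 and 19.58, Hist1h4k 5.4, 26.36 and 17.85, and Hist1h4f 5.96, 27.85 and 15.14. All neighbours in this order overlapped. Replicate 1 was the lowest library for all 4 genes, and replicate 2 was the highest for all but Hist1h4h. Hist1h4m and Hist1h4k share 91.7% and 86.2% of their 31-base words with other genes, so part of their separation rests on the authors' estimator.

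**Figure D2:**
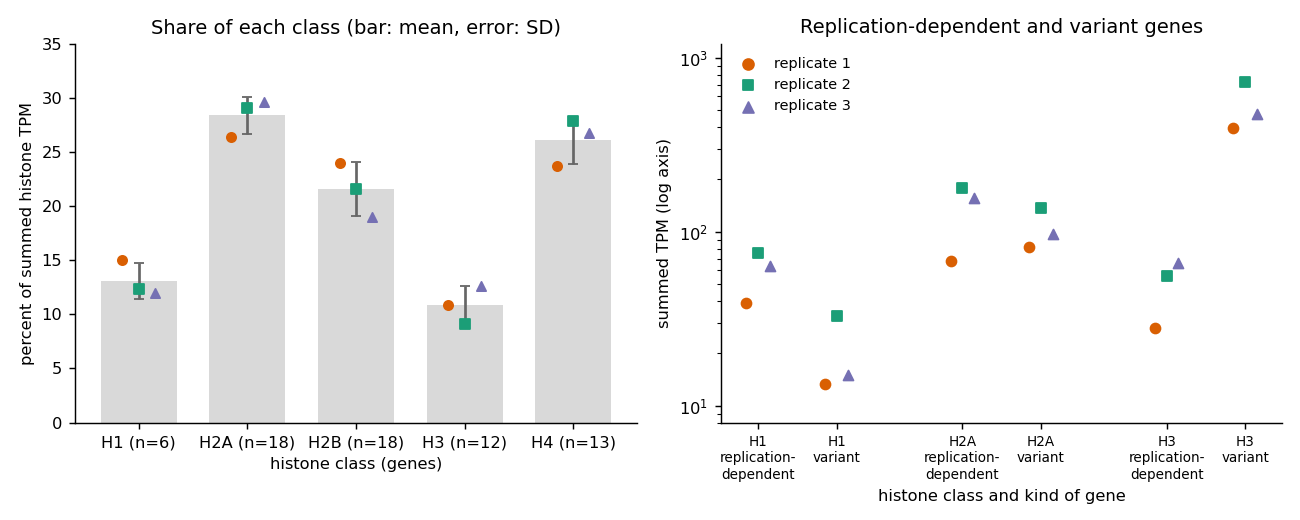
Left, share of the summed histone TPM held by each class, with bars for the mean, error bars for the SD and 1 symbol per library; right, summed TPM (log axis) of replication-dependent genes and of variant genes for H1, H2A and H3. H2A and H4 hold the most and H3 the least, and H3 is the class in which variants lie furthest above the replication-dependent genes.

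By class, H2A held 28.4% ± 1.73 of the summed histone TPM, H4 26.1% ± 2.19, H2B 21.6% ± 2.48, H1 13.1% ± 1.66 and H3 10.9% ± 1.75 (SD, n = 3). H3 was below H4 in each library, at 10.9% and 23.7% in replicate 1, 9.08% and 27.9% in replicate 2, and 12.6% and 26.8% in replicate 3. The H1 share, at 15.0%, 12.3% and 12.0%, lay above that of H3 in replicates 1 and 2 and below it in replicate 3. The shares of H1 and H4 depended on the length used. With annotated in place of effective length, H1 took 17.8% and H4 21.8%. The 3 genes with the highest mean TPM held 36.0%, 27.4% and 25.8% of histone TPM, and the 10 highest held 57.6%, 55.0% and 49.9%.

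Variant histones are made throughout the cell cycle, mostly from polyadenylated mRNA, and can replace the canonical forms outside S phase. H3f3b and H3f3a, which both encode H3.3, had 287 ± 83.8 and 220 ± 89.1 TPM, and H2afz, which encodes H2A.Z, had 47.1 ± 16.8 TPM (SD, n = 3). The 3 H3 variant genes, Cenpa included, summed to 395.3, 727.8 and 476.5 TPM in replicates 1, 2 and 3. The 12 replication-dependent H3 genes summed to 28.1, 55.93 and 66.45 TPM. The variants were thus 14.1, 13.0 and 7.17 times higher. For H2A the same ratio was 1.2, 0.761 and 0.617, and for H1, where H1f0 supplied nearly all variant mRNA, it was 0.346, 0.43 and 0.235. The ratio was lowest in replicate 3 for all 3 classes.

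**Figure D3:**
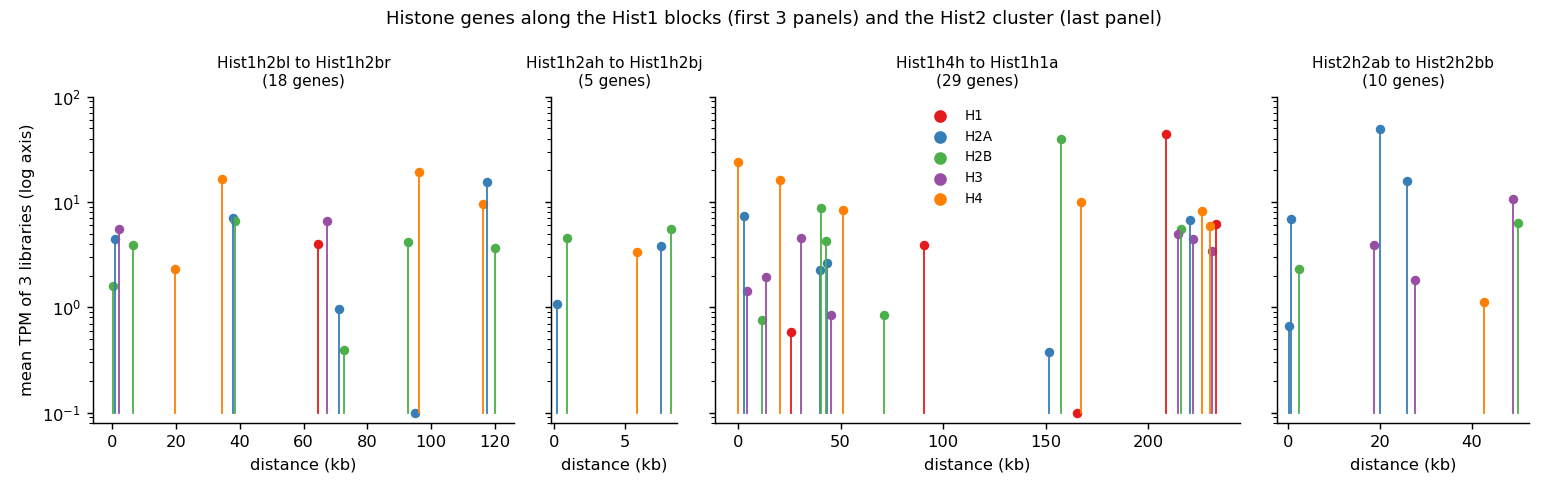
Mean TPM (log axis, 3 libraries) of histone genes against distance in kb from the first gene of each block, coloured by class, for the 3 larger Hist1 blocks and the Hist2 cluster; genes below 0.1 TPM are drawn at 0.1, and each panel has its own distance scale. High and low genes of different classes lie side by side. The block from Hist1h2ah to Hist1h2bj is an exception, with no gene at 10 TPM or more.

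Along the chromosomes, gaps of over 100 kb divided the Hist1 cluster into 4 blocks. The block from Hist1h4h to Hist1h1a spanned 233 kb, held 29 genes and carried 52.5%, 47.9% and 48.2% of histone TPM. The block from Hist1h2bl to Hist1h2br, with 18 genes over 122 kb, carried 21.2%, 23.5% and 25.7%. The Hist2 cluster carried 18.5%, 22.7% and 20.3% from 10 genes over 50.3 kb. The block of Hist1h2ba and Hist1h2aa alone had no counts.

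Members whose starts lie within 1000 nt of each other and point apart formed 13 pairs, of which 12 join an H2A with an H2B gene. Several such neighbours differed in level. Hist1h2bc was 216, 105 and 70.9 times above Hist1h2ac in TPM, although 251 nt separate their starts. Hist1h2bg was 4.49, 4.78 and 2.84 times above Hist1h2ae across 176 nt. Hist1h2ak and Hist1h2bn, 296 nt apart, had 2.01 and 2.56 TPM in replicate 1, 8.74 and 9.91 in replicate 2, and 10.24 and 7.44 in replicate 3, so neither was the higher throughout. The model of Hist1h2ac runs 2010 nt past its stem-loop, and the effect of model length on these ratios was not tested.

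Most histone genes had their lowest level in replicate 1, and most varied between libraries beyond counting error. For each of the 13237 genes whose counts averaged at least 10, a chi-square test set the variance between libraries against the one that counting alone gives, with Benjamini-Hochberg adjustment over all of them. Of 60 histone genes tested, 55 were called at an adjusted p of 0.05, against 66.8% of all genes. The test takes no account of uncertainty in placing shared reads. That uncertainty was large for some called members, such as Hist1h2br, with a posterior SD of 134%, 56.5% and 70.6% of the count. The lowest scaled CPM fell in replicate 1 for 51 of the 60, against 31.0% of all genes, and the highest in replicate 3 for 48, against 31.3%. The highest library depended on the scale. By gene-table TPM it was replicate 2 for 29 and replicate 3 for 24 of the 53 members at 1 TPM or more. On that scale 52 of the 53 were lowest in replicate 1. Nuclear protein-coding genes as a whole also took least TPM there, at 22.3%, 34.4% and 24.3% of the total in replicates 1, 2 and 3. The share of all genes lowest in replicate 1 by TPM is not given here. Median deviations from the gene's own mean, in log2 of scaled CPM, were -0.58, 0.05 and 0.57 for replicates 1, 2 and 3. Over all tested genes these medians were 0.00, 0.01 and 0.00. The median biological coefficient of variation, from edgeR, was 40.2% for histone genes and 17.3% for all tested genes. The median ratio of replicate 3 to replicate 1 was 2.3, and that of replicate 2 to replicate 1 was 1.46. Without replicate 3, 32 of 59 histone genes were called, against 51.2% of all genes, and the median deviations of replicates 1 and 2 were -0.28 and 0.28. Without replicate 1, 37 of 61 were called, against 55.3% of all genes, and those of replicates 2 and 3 were -0.22 and 0.22. Both counts are near the background, whereas without replicate 2 it was 47 of 60, against 33.1%.

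**Figure D4:**
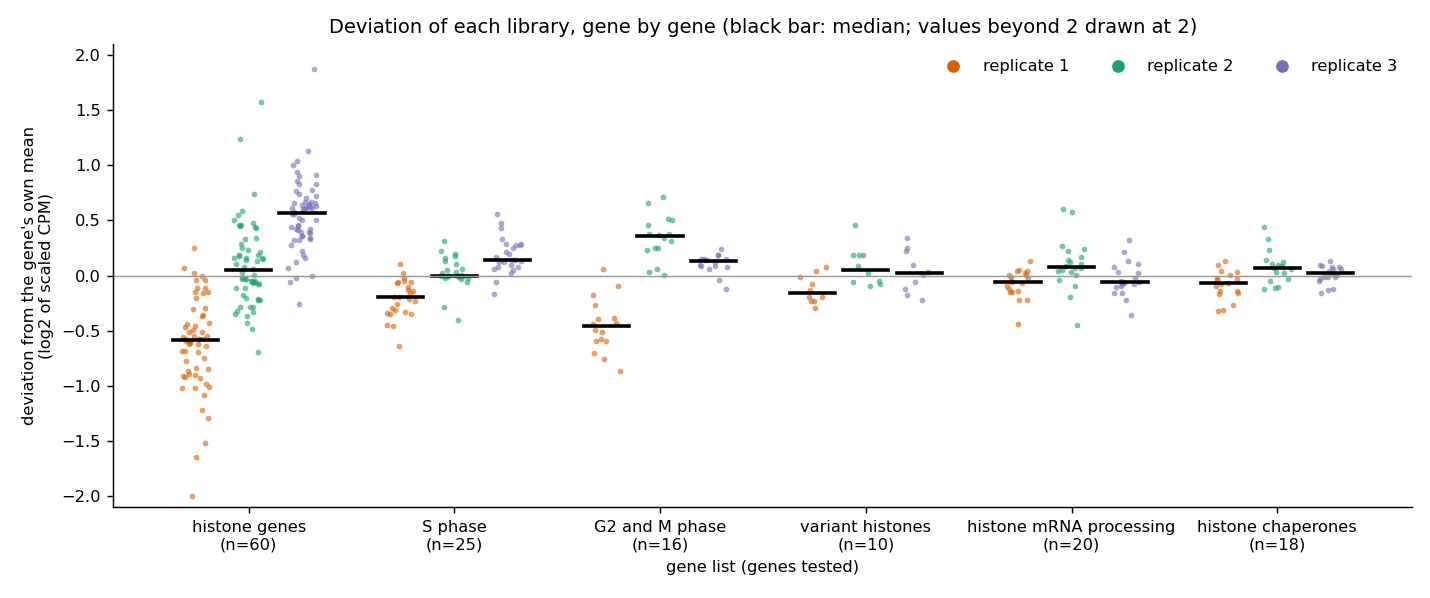
Deviation of each library from the gene's own mean (log2 of TMM-scaled CPM) for tested histone genes and 5 other gene lists; each point is a gene in a library, black bars are medians, and 1 histone value below -2 is drawn at -2. Histone genes separate the 3 libraries, with medians of -0.58, 0.05 and 0.57, more widely than the S phase list does.

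All classes moved in the same direction. In replicate 1 the median deviation was -0.59 for H1, -0.62 for H2A, -0.51 for H2B, -0.56 for H3 and -0.64 for H4. In replicate 3 it was 0.41, 0.64, 0.44, 0.68 and 0.45 in the same order. All 12 H3 genes were highest in replicate 3. H4 had 3 of its 13 genes highest in replicate 2 and 1 in replicate 1. The block from Hist1h4h to Hist1h1a, the block from Hist1h2bl to Hist1h2br and the Hist2 cluster had medians of -0.60, -0.58 and -0.55 in replicate 1. In replicate 3 these were 0.62, 0.61 and 0.46. The other locations differed. The 5 genes from Hist1h2ah to Hist1h2bj had medians of -0.20, -0.05 and 0.42 in replicates 1, 2 and 3. Hist3h2a, the only tested gene of Hist3, had -0.11, 0.13 and -0.02, and Hist4h4 had 0.25, -0.37 and 0.12.

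Among members with a mean count of at least 100, the widest ratio between libraries belonged to Hist2h2aa1, with 2.31, 15.6 and 8.04 CPM and a 6.77-fold range (chi-square test, Benjamini-Hochberg adjusted p = 5e-64). Its division from Hist2h2aa2 was uncertain, with a posterior SD of 34.6%, 7.37% and 13.4% of the count. The sum of both genes was 19.5, 40.4 and 41.3 CPM, a range of 2.12-fold. Hist1h1a, whose reads are almost all its own, came next with 1.82, 6.34 and 7.69 CPM and a 4.23-fold range (adjusted p = 2.4e-18 in the same chi-square test). Hist1h4k followed at 1.07, 3.12 and 3.51 CPM, Hist1h4f at 2.09, 5.99 and 5.05 CPM, and Hist2h4 at 1.15, 3.22 and 3.25 CPM. Replicate 1 was lowest for all 5 genes, and by ratio replicates 2 and 3 lay closer to each other than to it.

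The 3 members with the most counts varied little. Hist1h1c had 91.1, 101 and 113 CPM, a range of 1.24-fold that still passed the test because its counts are large (chi-square test, Benjamini-Hochberg adjusted p = 4.3e-15). Hist1h2bc had 62.3, 64.8 and 59.6 CPM and Hist3h2a 31.5, 37.4 and 33.6 CPM. These 3 genes together summed to 185, 203 and 206 CPM, a ratio of 1.11 between replicates 3 and 1. The other 64 members summed to 144, 236 and 295 CPM, a ratio of 2.05. Highest and lowest library were less than 1.5-fold apart in 8 of the 60 tested members, named here after their values were seen: Hist1h4i, Hist1h2bc, Hist3h2a, Hist2h3c1, Hist1h1c, Hist1h2be, Hist2h2be and Hist1h2bj. The gene model extends more than 100 nt past the stem-loop in 5 of these 8 and holds an untranslated region without it in 2. Over all 60 tested members those kinds of model had 21 and 5 genes. A further 9 members were 1.5- to 2-fold apart, 31 were 2- to 3-fold apart, and 12 were 3-fold or more apart or had a library at 0.

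The ratio also differed with the gene model. For members modelled as coding sequence only or nearly, the median ratio of replicate 3 to replicate 1 was 3.07, against 2.33 where the model ended within 100 nt of the stem-loop, 2.11 where it ran further and 1.93 where the untranslated region lacked the motif. Annotated length exceeded effective length by a median of 224, 240 and 212 nt in replicates 1, 2 and 3 for members over 1000 nt, a gap that follows the fragment length. The part that fragment length plays in the counts of the shortest models was not tested. Without the members modelled as coding sequence only or nearly, a selection made after the data were seen, the medians of the other 47 were -0.57, 0.01 and 0.46.

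Lists of genes that act with histones or in the cell cycle had smaller median deviations in replicates 1 and 3. In the S phase list, genes of DNA replication and nucleotide supply, 16 of 25 tested genes were called, a share near the 66.8% of all tested genes. Of the 25, 21 were lowest in replicate 1 and 19 highest in replicate 3, against 31.0% and 31.3% of all tested genes. The median deviations of the list were -0.19, 0.00 and 0.14. Pcna, the sliding clamp of DNA polymerases and the highest of the list, had 137, 151 and 162 CPM. The helicase subunit Mcm6 had 33.6, 42.2 and 50.6 CPM, and Mcm3 had 16.7, 20.5 and 25.0 CPM. In the G2 and M phase list 14 of 16 were called, against 66.8% of all tested genes, and 15 were lowest in replicate 1, against 31.0%. Their highest library was replicate 2 in 13 cases, against 5157 of all 13237 tested genes. The medians of this list were -0.46, 0.36 and 0.13. Cdk1, the kinase that drives entry into mitosis, had 6.44, 9.61 and 7.58 CPM, Top2a, which untangles DNA, had 19.8, 31.8 and 30.6 CPM, and Mki67, a marker of dividing cells, had 68.0, 67.7 and 59.8 CPM. In bulk RNA, fewer dividing cells and less histone RNA per cell cannot be told apart.

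In the list of histone mRNA processing, 14 of 20 tested genes were called, a share near the 66.8% of all tested genes. Median deviations were -0.06, 0.08 and -0.06. Slbp had 22.3, 23.9 and 21.1 CPM and so varied little. The highest genes of this list per length were Cdk9, a transcription elongation kinase, at 28.8 ± 5.77 TPM, and the Sm protein genes Snrpb and Snrpd3 at 25.4 ± 3.21 and 17.9 ± 13.7 TPM (SD, n = 3). The U7 RNA gene Rnu7 had 0 counts in each library. The labels give a size range of 250 to 400 nt, and its part in these counts was not tested. Of the histone chaperones, which carry histones to DNA, 16 of 18 were called, against 66.8% of all tested genes. Their medians were -0.07, 0.07 and 0.02. Nap1l1 at 36.1 ± 12.9 TPM, Atrx at 20.3 ± 4.29 TPM and Supt16 at 18.7 ± 5.63 TPM were the highest. Of 10 tested variant histone genes 9 were called, against the same 66.8%, with medians of -0.16, 0.05 and 0.02.

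Markers of other cells moved between the same libraries. Of 10 neutrophil markers 6 were tested and all 6 were called, against 66.8% of all tested genes. Their medians were -0.76, 0.03 and 0.56, close to the histone values. The defining markers Ly6g and Retnlg were at or near 0, with at most 0.029 and 0.0735 CPM. S100a9 and S100a8, abundant calcium-binding proteins of neutrophils, were called, and both were lowest in replicate 1. S100a9 ran from 4.08 CPM there to 10.4 CPM in replicate 3, and S100a8 had 2.4, 5.6 and 4.85 CPM. The summed level of the list, mostly Csf3r, was 91.96, 83.5 and 103.8 CPM. Ngp, a granule protein of immature neutrophils, had 2.22, 4.21 and 6.01 CPM. Of 6 progenitor markers 4 were tested and 1, Kit, was called; their summed level was 8.522, 7.461 and 7.227 CPM. The stromal markers, high in replicate 1 alone, moved against the histone genes, and the nuclear RNAs, lowest in replicate 2, followed another order. The part of these cells and of nuclear RNA in the histone differences was not tested.

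Reads that fit several genes limit what can be said of single members. At least 50% of the 31-base words were shared with another gene in 41 of the 67 members, and at least 90% in 11. The median posterior SD was 5.06%, 2.48% and 3.37% of the count in replicates 1, 2 and 3, over the 55, 60 and 61 members with 10 or more counts there. With a mean count of at least 100, the largest values belonged to Hist2h3c1 with a mean of 19.9%, Hist2h2aa1 with 18.5% and Hist1h4n with 10.3%. Hist2h3c1 overlaps the same-strand transcript Gm20634, as does Hist2h2aa1, and Gm20634 received 469.23, 1298.62 and 781.78 counts. The transcript Hist2h3c1-202 had 103.29, 252.55 and 193.99 counts in the first transcript table and 4.815, 0 and 0 in the second, so its level is unresolved. Hist2h2aa2, Hist2h3b and Hist2h2bb have antisense partners, Gm20632 for the first and Gm20628 for the other two, with 67.95 to 210.56 and 42.36 to 210.24 counts. Whether counting used the strand is not given in the sources used here.

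**Figure D5:**
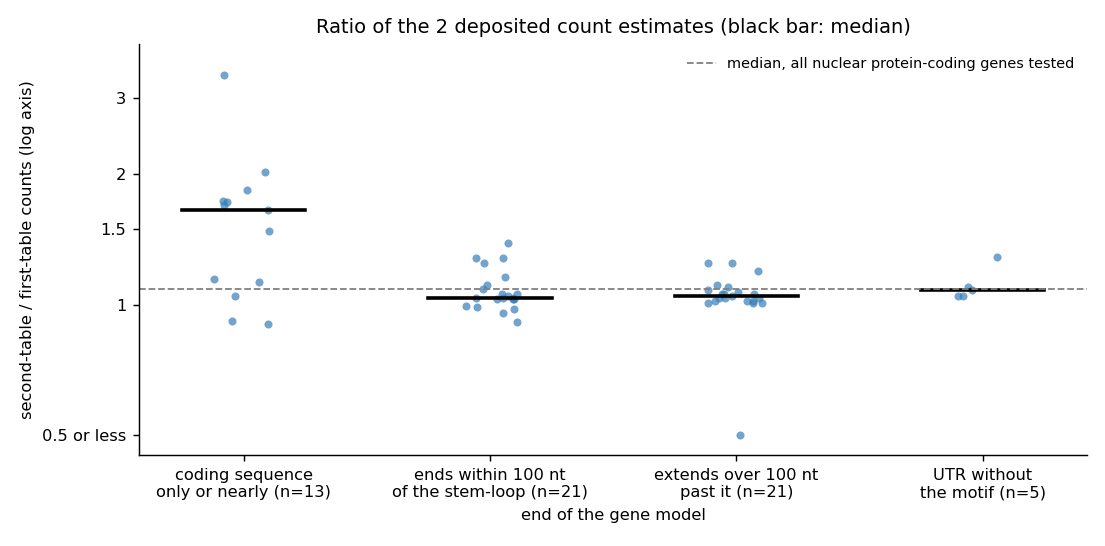
Counts of the second transcript table divided by those of the gene table (log axis, means over 3 libraries) for the 60 tested histone genes by the end of their gene model; each point is a gene, black bars are medians, the dashed line is the median of nuclear protein-coding genes, and Hist2h3c1 is drawn at 0.5. Genes modelled as coding sequence only or nearly have a median of 1.66, and the other groups lie between 1.04 and 1.08.

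The 2 deposited quantifications gave similar counts for most members and different ones for the shortest models. The ratio of second-table to gene-table counts had a median of 1.66 in the 13 tested members modelled as coding sequence only or nearly, and 7 of these reached 1.5. It was 1.04 where the model ended near the stem-loop, 1.05 where it ran further and 1.08 where it lacked the motif, and no such member reached 1.5. Among 11576 nuclear protein-coding genes tested the median was 1.09, and 3.08% reached 1.5. Hist1h2ah had the highest ratio, 3.39, and Hist1h2ak had 2.03. The shortest member, Hist1h4k, had an effective length of 85.9 nt in replicate 2. TPM differed the other way for all 11 members at 10 TPM or more. Whether it did so over all genes was not tested. The gene table gave 2.75 times the TPM of the second table for Hist1h2ap, 2.66 times for Hist1h4h and 2.62 times for Hist2h2aa2. The order of libraries by TPM also differed for some members. In the second table Hist1h1c had 12.1, 32.5 and 10.4 TPM in replicates 1, 2 and 3. Hist1h2bc had 12.0, 30.0 and 7.93 TPM there, so both were lowest in replicate 3. Hist2h2aa2, at 10.1, 34.8 and 11.0 TPM, and Hist1h2ap, at 3.68, 8.92 and 4.14 TPM, were still lowest in replicate 1.

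Few members had more than 1 transcript with a share of the gene's TPM. Hist1h2be-201 held 56.06% of its gene in replicate 1 and 0% in replicates 2 and 3, and Hist1h2be-202 held 40.16%, 92.58% and 98.9%. The counts behind these shares were 36.07, 0 and 0 for the first and 25.54, 180.55 and 107.86 for the second. The second table gave 40.0, 0 and 0 counts for Hist1h2be-201, so both quantifications placed it in replicate 1 alone. Hist1h2bq-201, the short single-exon form, held 69.22%, 89.37% and 86.52% of its gene, and Hist1h2bq-202, a longer form of 2 exons, held 25.12%, 10.07% and 13.03%. Hist1h2bq-201 and Hist1h2br-202 were assigned the same counts, 4.9, 65.46 and 47.21, so the level of neither is resolved. Hist1h2bp-202 held 31.74% in replicate 2 alone, from 3.02 counts.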

How the data were processed

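The authors deposited, for each of 3 libraries, a gene table and 2 transcript tables on mm10 with GENCODE M21, per the deposited readme files. For the tools, their versions and strand use: not given in the sources used here. The deposited expected counts share out multi-mapping reads, and the deposited posterior SD is used as a score of that uncertainty. TPM, as deposited, is the count over the effective length, with all rows brought to a fixed total. Nuclear protein-coding genes took 22.3%, 34.4% and 24.3% of it in replicates 1, 2 and 3, so TPM also moves with short abundant RNAs. Isoform shares in percent are the authors' values. Second-table gene values are sums over transcripts. Rows that name no annotated gene, 26345 in all, were left out.

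Expected counts were rounded, scaled by TMM (edgeR 4.0.16 in R 4.3.3) over genes averaging at least 10 counts. A chi-square test of the variance over Poisson expectation was run on each such gene, with Benjamini-Hochberg adjustment at 0.05. edgeR's common coefficient of variation was 25.0%. Deviations use log2 CPM with a prior count of 0.5. The test was also run on simulated Poisson counts in which 200 genes were changed 1.5- or 2-fold in 1 library. It recovered 75.0% and 88.0% of them, and 3.23% and 4.86% of its calls were false. Variation beyond counting error was not simulated. Since there is 1 group, no contrast between conditions was tested. DESeq2 1.42.0 gave alternative size factors. Other steps ran in Python 3.11.15 with scipy 1.17.1, pandas 2.3.3 and numpy 2.4.6, and figures in matplotlib 3.10.9.

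The members, the gene lists and the tests were chosen with earlier results of these data known. Named genes were, per class, the 3 with the highest mean TPM and all at 10 TPM or more; genes with 0 counts throughout; the 5 widest ratios between libraries and the 3 largest posterior SDs at a mean count of 100 or more; the 3 that differed most between tables; genes with 2 transcripts at 10% or more; and the 3 highest of each companion list. Members of head-to-head pairs, overlapping genes, Hist1h1d, Hist1h1e and further list genes were named after their values were seen. Promoter sequences are RefSeq's on GRCm38.p6, the build of mm10, and transcript sequences are GENCODE M21's.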

Additional observations from a re-analysis of the deposited data

How the results depend on the processing

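No paired analysis was possible because all 3 libraries belong to 1 group. The number of histone genes at 1 TPM or more, 53, was between 46 and 61 with the second table, annotated length, TPM over nuclear protein-coding genes alone or 1 TPM in every library, and 52 to 55 with a library left out. In the between-library test 55 of 60 were called, against 66.8% of all genes. It was 55 of 60 with DESeq2 size factors, against 67.7% of all genes, and 53 of 60 with library totals alone, against 73.1%. Counts of the second table gave 56 of 59, against 70.1%. At a mean count of 50 or more 50 of 53 were called, against 72.3%, and with no filter 56 of 64, against 45.7%. The number called depended more on the libraries used. With a library left out it ranged from 32 to 47: 32 of 59 without replicate 3, where 51.2% of all genes were called, 37 of 61 without replicate 1 (55.3%) and 47 of 60 without replicate 2 (33.1%). The median deviation ranged from -0.63 to -0.57 in replicate 1 and from 0.46 to 0.57 in replicate 3 over scalings, prior counts, filters, members and tables. Library totals alone moved the median of all genes in replicate 2 to 0.12 and that of histone genes to 0.16. With a library left out the histone median ranged from -0.60 to -0.28 in replicate 1, from -0.22 to 0.28 in replicate 2, where the sign turned, and from 0.22 to 0.60 in replicate 3; each gene's mean is then taken over 2 libraries. With annotated length the H1 share of histone TPM moved from 13.1% to 17.8% and the H4 share from 26.1% to 21.8%, and the other 3 classes moved by less than their SD. Of 17 single genes followed in TPM, 11 moved by more than their SD with the second table and 4 with annotated length. Counting error limits genes with few counts in replicate 1, the shallowest library.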
